A study of Mus musculus with 6 samples.

Results

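The 10 genes described here encode the NudC protein family and core parts and regulators of the cytoplasmic dynein motor. They are *Nudc*, *Nudcd1*, *Nudcd2*, *Nudcd3*, *Nde1*, *Ndel1*, *Pafah1b1*, *Dync1h1*, *Dctn1* and *Dctn2*, 10 of the 25239 genes listed in the counts, and all 10 passed the filter on low counts that left 14445 genes. The list was chosen by function around *Nudc*, and *Nudc* itself was selected on its difference between the genotypes in these same libraries. Its p ranked 6 of the 14445 in that comparison, so the differences between the genotypes in these genes are given as a description, without a p. Hippocampal RNA was sequenced from 3 WT (Ube3am+/p+) and 3 Ube3am-/p+ mice, with 1 library per mouse. All 6 were males aged 6 to 8 weeks on the C57BL/6 background and received no treatment that the labels name. Ube3am-/p+ mice, a model of Angelman syndrome, carry a defective maternal and an intact paternal copy of *Ube3a*, and the construction of the allele is not given in the sources used here.

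Cytoplasmic dynein walks toward the minus ends of microtubules and carries vesicles, mRNA and signalling endosomes from axon and dendrite to the cell body. Its heavy chain binds the microtubule and burns ATP, and dynactin is the partner complex that makes the motor processive. LIS1 (the product of *Pafah1b1*) and the related scaffolds NDE1 and NDEL1 bind the motor and help its assembly with dynactin, and they are known for their part in neuronal migration. NudC was first studied as a nuclear movement gene of fungi. NudC and its relatives share the CS fold of small co-chaperones and are known to stabilise client proteins, LIS1 among them.

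The libraries held 7293272 to 8675252 counts on genes in WT mice and 8871052 to 11314409 in Ube3am-/p+ mice. *Ube3a* had 103.5, 140.7 and 151 CPM (each count scaled to its library's total count on genes) in WT mice 1, 2 and 3. It had 96.8, 82.9 and 80.6 CPM in Ube3am-/p+ mice 1, 2 and 3, lower in each than in any WT mouse. On the log2 scale the difference was -0.58 ± 0.12 (SE, adjusted p = 0.0363 by edgeR), in the direction of the labels. Once the libraries were corrected for GC content and length it was -0.20 (adjusted p = 0.241, edgeR). Without WT mouse 2 or 3 or Ube3am-/p+ mouse 2 or 3 it was -0.54 to -0.48 (adjusted p between 0.142 and 0.251, edgeR). The call was lost there, where only 0 to 2 of all tested genes were called. Markers of neurons, glia, vessels, meninges and choroid plexus were found in every library, and no marker was at 0. The libraries differed in how expression followed the GC content of the transcripts. Each gene's deviation from its mean over the 6 libraries was ranked against GC content over 14201 genes, which are no replicates of each other. Spearman's rho was 0.0473, -0.515 and -0.583 for WT mice 1, 2 and 3. It was 0.0606, 0.537 and 0.538 for Ube3am-/p+ mice 1, 2 and 3. The mice numbered 1 thus lay together, and those numbered 2 and 3 lay on opposite sides by genotype.

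The sequences upstream of 3 of these genes are shown because these genes had the most positive log2 fold change, the most negative one and the fewest counts of the 10. They are the 250 bases before the RefSeq start, on GRCm38.p6, at chr4:133546028-133546277 (minus strand) for *Nudc*, chr16:14163025-14163274 (plus strand) for *Nde1* and chr11:40733411-40733660 (plus strand) for *Nudcd2*. Capitals mark matches on either strand to the GC box GGGCGG, the CCAAT box CCAAT, the TATA box TATAAA or the E box CACGTG.
Nudc promoter: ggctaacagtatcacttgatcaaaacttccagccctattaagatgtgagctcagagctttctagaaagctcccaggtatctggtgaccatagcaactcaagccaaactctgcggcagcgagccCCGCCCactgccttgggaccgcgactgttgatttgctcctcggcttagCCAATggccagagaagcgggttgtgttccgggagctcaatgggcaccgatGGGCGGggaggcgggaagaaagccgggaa
Nde1 promoter: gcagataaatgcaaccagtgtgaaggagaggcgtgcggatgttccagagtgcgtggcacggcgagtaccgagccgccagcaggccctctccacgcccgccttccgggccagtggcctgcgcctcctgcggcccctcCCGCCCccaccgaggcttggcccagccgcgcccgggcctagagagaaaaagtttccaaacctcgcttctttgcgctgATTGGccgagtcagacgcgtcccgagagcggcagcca
Nudcd2 promoter: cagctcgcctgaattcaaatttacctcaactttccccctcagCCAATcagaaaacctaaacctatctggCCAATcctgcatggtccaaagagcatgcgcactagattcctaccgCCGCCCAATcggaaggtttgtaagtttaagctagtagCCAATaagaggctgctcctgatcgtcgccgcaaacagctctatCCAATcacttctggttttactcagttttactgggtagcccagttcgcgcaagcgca

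All 3 held a GC box and a CCAAT box and none held the other motifs. *Nudc* had 2 GC boxes and 1 CCAAT box, *Nde1* had 1 of each, and *Nudcd2* had 1 GC box and 5 CCAAT boxes, 1 of which shares letters with the GC box. Of 32851 RefSeq promoters of the same length, 32.7% held a GC box and 33.8% a CCAAT box. A start was matched for 9 of the 10 genes, with 2 starts for *Dctn1*, which gave 10 promoters in all. Of these, 5 held a GC box, 4 a CCAAT box, 1 a TATA box (*Ndel1*) and 2 an E box (*Ndel1* and *Nudcd3*). The TATA box was in 12.4% of all promoters and the E box in 6.02%. *Nudcd1* had no match. The *Nudc* promoter had a GC content of 56.4% and 12 CpG dinucleotides, that of *Nde1* had 67.2% and 24 and that of *Nudcd2* had 49.2% and 11, where the medians over all promoters were 52.4% and 6. A match is a description of letters and was not tested for binding.

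Expression per transcript length was compared first, since it did not enter the choice of the genes. Levels are CPM per kilobase of the longest annotated transcript (RPKM), and neighbours in the order were compared within each mouse by an exact sign-flip permutation test, two-sided, adjusted over 9 pairs. The smallest p that 6 mice allow is 0.0312. *Dctn1*, which encodes the largest dynactin subunit and its microtubule-binding arm, stood highest with 121 ± 14.9 RPKM (SD, n = 6). *Dctn2*, the dynamitin subunit of the dynactin shoulder, followed with 74.2 ± 6.16 RPKM (SD, n = 6). *Dctn1* exceeded *Dctn2* 1.63-fold and in 6 of 6 mice (exact permutation test, adjusted p = 0.0469).

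*Nudc* (66.0 ± 13.7 RPKM, SD, n = 6) and *Pafah1b1* (64.6 ± 5.75 RPKM, SD, n = 6) came next. Over both genotypes, *Dctn2* was above *Nudc* in 4 of 6 mice (exact permutation test, adjusted p = 0.211) and *Nudc* above *Pafah1b1* in 3 of 6 (exact permutation test, adjusted p = 0.938). These pooled tests join genotypes in which the order differed. *Nudc* was at 53.7 ± 3.41 RPKM in WT mice (SD, n = 3), below both *Dctn2* (71.1) and *Pafah1b1* (69.1) in 3 of 3. It was at 78.3 ± 1.07 RPKM in Ube3am-/p+ mice (SD, n = 3), above *Pafah1b1* (60.1) in 3 of 3 and above *Dctn2* (77.4) in 2 of 3. Since *Nudc* was selected on its genotype difference, this change of order is a description. The heavy chain gene *Dync1h1* had 47.3 ± 4.21 RPKM (SD, n = 6), below *Pafah1b1* in 6 of 6 mice (exact permutation test, adjusted p = 0.0469). *Nudcd3*, whose product is known to support the folding of dynein intermediate chain, had 40.04 ± 3.15 RPKM (SD, n = 6). It was below *Dync1h1* in 5 of 6 mice (exact permutation test, adjusted p = 0.0804), within the spread.

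The lower end of the order was clearer. *Ndel1* had 28.3 ± 1.24 RPKM (SD, n = 6), *Nde1* 11.2 ± 2.08, *Nudcd2* 6.95 ± 1.14 and *Nudcd1* 5.47 ± 0.351, and each neighbour was lower than the one before it in 6 of 6 mice (exact permutation test, adjusted p = 0.0469 for each pair). Of the NDE1 and NDEL1 pair, *Ndel1* exceeded *Nde1* 2.56-fold. Within the NudC family, the 4 levels spanned from *Nudc*, above 94.1% of the tested genes with a known length, to *Nudcd1*, above 39.1% of them. The order depends on the transcript used. With the median in place of the longest transcript length, *Dync1h1* moved from rank 5 to rank 1, because the median of its annotated transcripts is 599 bases and the longest is 14342, and the other 9 genes stayed in the same order.

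**Figure D1:**
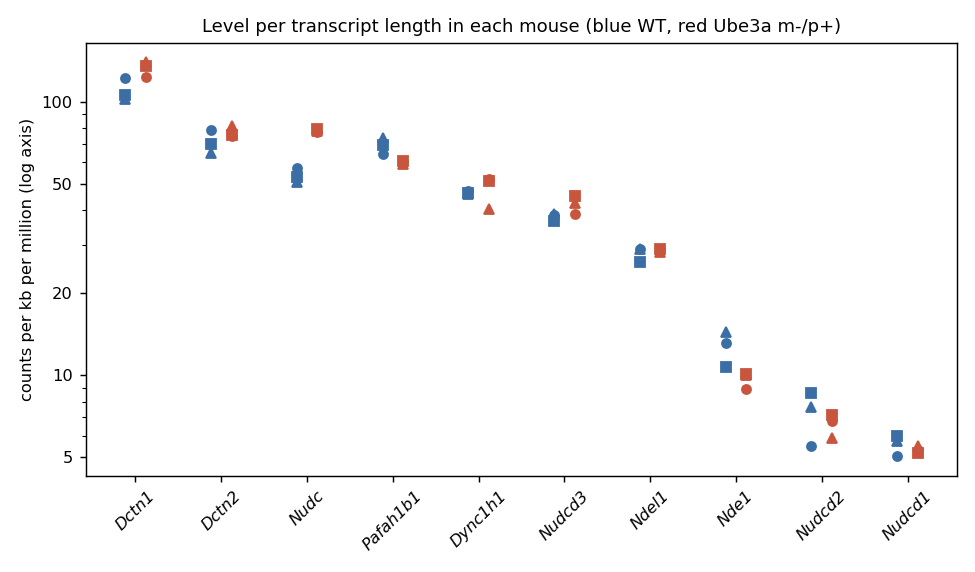
Level of each gene in each mouse, in CPM per kilobase of the longest annotated transcript (RPKM) on a log axis, ordered by the mean of 6 mice. Circles, squares and triangles are mice 1, 2 and 3 of each genotype, blue for WT and red for Ube3am-/p+. *Dctn1* is highest at 121 and *Nudcd1* lowest at 5.47, and the red points of *Nudc* stand above its blue points.

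*Nudc* was the member with the largest difference between the genotypes. It lies on chromosome 4 of GRCm38 (133532542 to 133545996, minus strand, GENCODE M21) and is protein coding. Its counts were 641, 606 and 486 for WT mice 1, 2 and 3, and 905, 1184 and 1078 for Ube3am-/p+ mice 1, 2 and 3. These are 75.5, 69.8 and 66.6 CPM in WT mice and 102, 105 and 102 CPM in Ube3am-/p+ mice. Every Ube3am-/p+ mouse was above every WT mouse, and the 3 Ube3am-/p+ values lay within 3 CPM of each other. The means were 70.7 ± 4.49 and 103 ± 1.41 CPM (SD, n = 3 each), a fold of 1.46 and a log2 fold change of 0.56 (standard error 0.09, edgeR).

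Among the members, 1 of 10 was called (*Nudc*, higher in Ube3am-/p+ mice) by edgeR, where a call needs a fold change of more than 1.2 and an adjusted p under 0.05. Over all tested genes 2.01% were called, 1.02% as higher and 0.99% as lower, and since the same comparison chose *Nudc*, nothing is read from this count. WT and Ube3am-/p+ values were without overlap in 5 of the 10, 3 with higher values (*Nudc*, *Nudcd3* and *Dctn1*) and 2 with lower values (*Nde1* and *Pafah1b1*). Over all tested genes this held for 10.8% with higher and 14.2% with lower values. At an unadjusted p below 0.05 by edgeR there were 2 higher and 2 lower members, beside 12.2% and 12.4% of all tested genes (24.6% in all). With the fold change of 1.2 added there were 3 members, beside 19.6%, and DESeq2 called 2, beside 6.58%. The median log2 fold change was 0.06 over the 10 members and 0.0025 over all tested genes.

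Between the mice numbered 1, with 1 library per genotype and rho near 0 in both, *Nudc* had 75.5 CPM in the WT and 102 CPM in the Ube3am-/p+ mouse (1.35-fold, no test). The mice numbered 2 had 69.8 and 105 CPM, and those numbered 3 differed 1.54-fold. The longest *Nudc* transcript has a GC content of 57.2%, and 1140 tested genes within 1 percentage point of it had a median log2 fold change of 0.19. When the libraries were corrected for GC content and transcript length, the log2 fold change of *Nudc* was 0.30 (standard error 0.08, edgeR) and it was no longer called. Nor was it called with WT mouse 2 or 3 or Ube3am-/p+ mouse 2 or 3 left out, where its log2 fold change was 0.52 to 0.56. In those fits only 0 to 2 of all tested genes were called, so the lost call is not particular to *Nudc*. A processed pseudogene, *Nudc-ps1*, is annotated, and reads with more than 1 alignment were set aside by the counting and not assigned to genes. They made up 4.15%, 5.61% and 5.77% of the reads listed for WT mice 1, 2 and 3, against 4.06%, 3.71% and 3.77% for Ube3am-/p+ mice 1, 2 and 3, lower in every Ube3am-/p+ library. Their part in the *Nudc* difference was not tested.

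**Figure D2:**
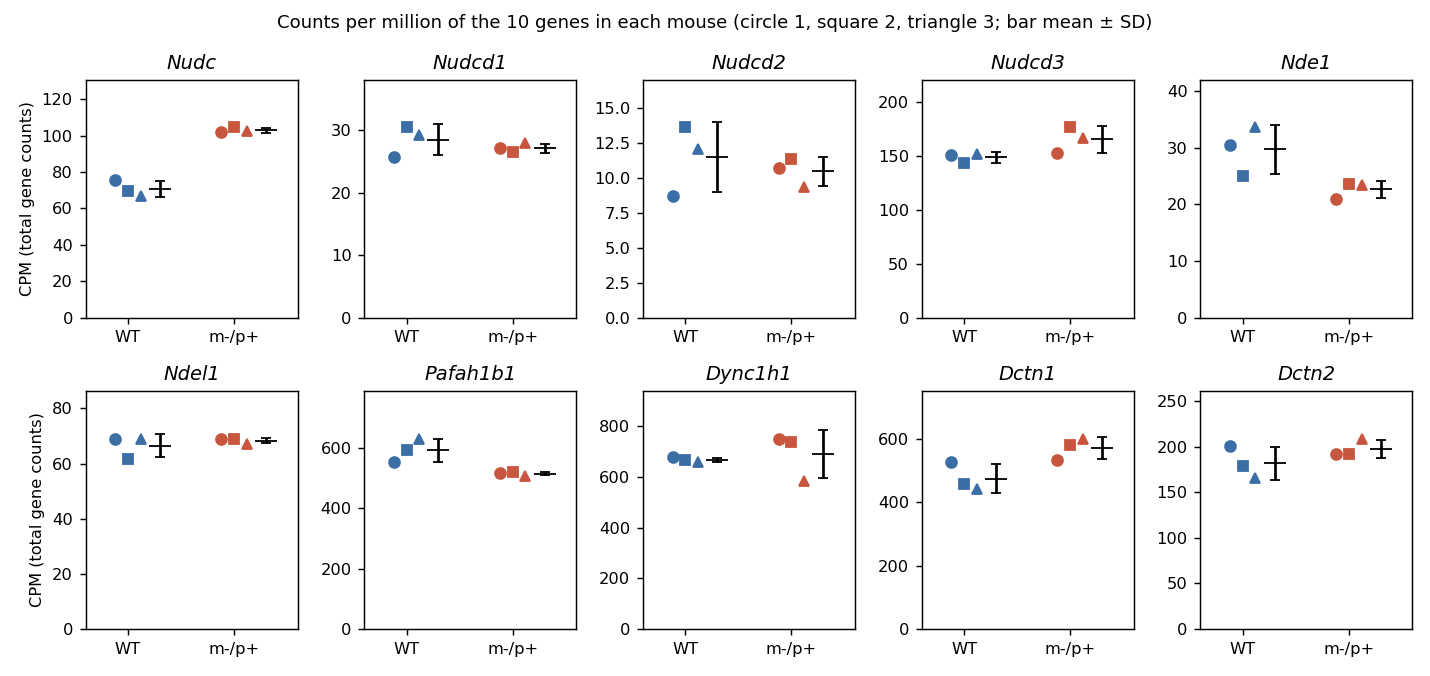
CPM of each of the 10 genes in each mouse, with every axis starting at 0. Circles, squares and triangles are mice 1, 2 and 3 of each genotype, blue for WT and red for Ube3am-/p+, and the black bar gives the mean and SD of 3 mice. The 3 Ube3am-/p+ points of *Nudc* lie between 102 and 105 CPM, above the WT points at 66.6 to 75.5 CPM.

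The other NudC family genes differed less. *Nudcd3* had 151, 143 and 152 CPM in WT mice 1, 2 and 3 and 153, 177 and 167 CPM in Ube3am-/p+ mice 1, 2 and 3. The groups were parted by less than 1 CPM, between WT mouse 3 and Ube3am-/p+ mouse 1, and edgeR gave a log2 fold change of 0.17 (standard error 0.09). *Nudcd1*, a CS domain protein also known as a tumour antigen, had 25.7, 30.4 and 29.2 CPM in WT mice and 27.1, 26.4 and 27.9 CPM in Ube3am-/p+ mice, and these ranges overlapped. Its log2 fold change was -0.05 (standard error 0.11, edgeR), and it was 0.19 after the correction, so its direction depends on that step as well. *Nudcd2*, the smallest relative and a LIS1 stabiliser, rested on 601 counts in the 6 libraries. It had 8.72, 13.6 and 12.1 CPM in WT mice and 10.7, 11.3 and 9.32 CPM in Ube3am-/p+ mice, so all Ube3am-/p+ values fell inside the WT range. Its log2 fold change was -0.12 (standard error 0.18, edgeR).

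Summed over the 4 family genes, the level per length was 104 ± 1.81 RPKM in WT mice and 132 ± 4.29 RPKM in Ube3am-/p+ mice (SD, n = 3 each). *Nudc* made up 53.9%, 50.9% and 49.3% of that sum for WT mice 1, 2 and 3, against 60.3%, 58.1% and 59.1% for Ube3am-/p+ mice 1, 2 and 3. Both measures carry the *Nudc* difference and are no separate evidence for it. Exons of *Nudcd1* share 266 bases with *Eny2* on the opposite strand and those of *Nudcd3* share 387 with *A730071L15Rik*, and the strand setting of the counting is not given in the sources used here.

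The pair of LIS1-binding scaffolds differed from each other. *Nde1* (chromosome 16, 14163275 to 14192928, plus strand), known as a microcephaly gene, had 30.5, 25.0 and 33.6 CPM in WT mice 1, 2 and 3. In Ube3am-/p+ mice 1, 2 and 3 it had 20.9, 23.6 and 23.5 CPM, all below the lowest WT mouse. The means were 29.7 ± 4.35 and 22.6 ± 1.55 CPM (SD, n = 3 each), with a log2 fold change of -0.37 (standard error 0.13, edgeR), the most negative of the 10 genes, and it was not called. Its GC content, 49.8%, is near the middle, where 1514 genes of like GC content had a median log2 fold change of -0.0031, and after the correction its log2 fold change was -0.40 (standard error 0.12, edgeR). It was 0.684-fold between the mice numbered 1, 0.943-fold between those numbered 2 and 0.699-fold between those numbered 3. Exons of *Nde1* share 77 bases with *Marf1* on the opposite strand.

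*Ndel1*, its paralogue, had 69.0, 61.6 and 69.0 CPM in WT mice and 68.9, 68.9 and 67.1 CPM in Ube3am-/p+ mice, with overlap and a log2 fold change of 0.06 (standard error 0.09, edgeR). The ratio of *Ndel1* to *Nde1* per length was 2.22, 2.41 and 2.01 for WT mice 1, 2 and 3, against 3.24, 2.86 and 2.80 for Ube3am-/p+ mice 1, 2 and 3. The ratio was higher in every Ube3am-/p+ mouse than in every WT mouse, and it carries the *Nde1* difference, since the *Ndel1* values overlapped.

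*Pafah1b1* (chromosome 11, 74673949 to 74724670, minus strand), whose loss causes lissencephaly in people, had 553, 593 and 631 CPM in WT mice 1, 2 and 3. It had 517, 519 and 508 CPM in Ube3am-/p+ mice 1, 2 and 3, all below the WT mice. By edgeR its log2 fold change was -0.18 (standard error 0.08) and it was not called. Its transcript is the poorest in GC of the 10, at 40.5%, and 788 genes of like GC content had a median log2 fold change of -0.27. After the correction the log2 fold change turned to 0.11 (standard error 0.08, edgeR), so its direction depends on that step. Pseudogenes named after *Pafah1b1* are annotated, and their part in its counts was not tested.

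The heavy chain gene varied mainly among the Ube3am-/p+ mice. *Dync1h1* had 677, 666 and 660 CPM in WT mice 1, 2 and 3 and 751, 736 and 583 CPM in Ube3am-/p+ mice 1, 2 and 3. The WT mice were close together and the Ube3am-/p+ mice lay on both sides of them, with Ube3am-/p+ mouse 3 lowest and mouse 1 highest of the 6. The edgeR log2 fold change was 0.06 (standard error 0.10), and it was -0.0024 after the correction. Exons of *Dync1h1* share 403 bases with *Gm35558* and 48 with *Gm17111*, both on the opposite strand. *Dctn1* (chromosome 6, 83165920 to 83200117, plus strand) had 527, 457 and 442 CPM in WT mice and 533, 582 and 602 CPM in Ube3am-/p+ mice. Its groups did not overlap, but WT mouse 1 and Ube3am-/p+ mouse 1 were 1.01-fold apart. The log2 fold change was 0.29 (standard error 0.09, edgeR), with the highest GC content of the 10 (58.8%), and it was 0.08 (standard error 0.07, edgeR) after the correction. *Dctn2* had 202, 179 and 166 CPM in WT mice and 192, 192 and 209 CPM in Ube3am-/p+ mice, with overlap and a log2 fold change of 0.14 (standard error 0.09, edgeR).

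**Figure D3:**
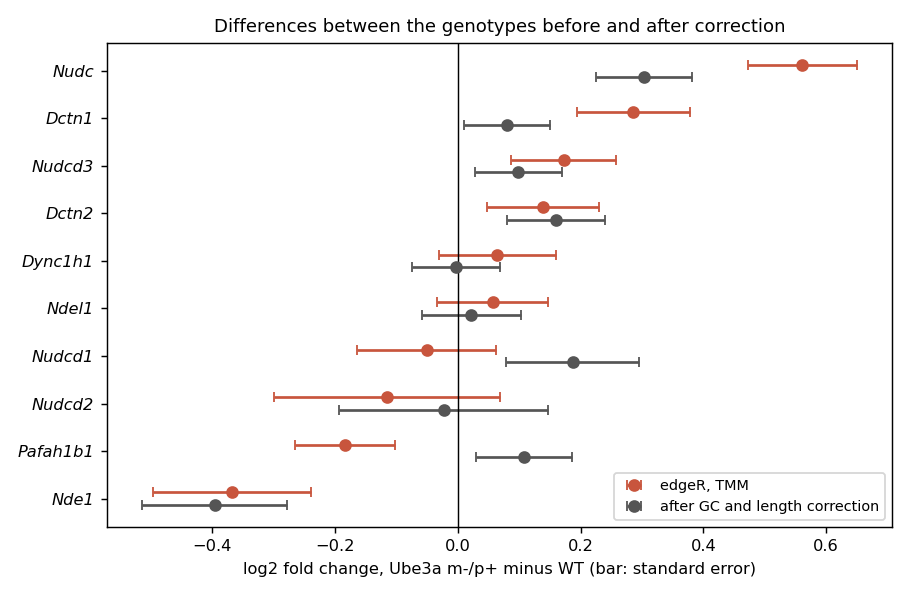
Log2 fold change of Ube3am-/p+ against WT mice for the 10 genes by edgeR, with the standard error as bars, as fitted (red) and with the libraries corrected for GC content and length (grey). *Nudc* goes from 0.56 to 0.30 and *Nde1* from -0.37 to -0.40, while *Pafah1b1* passes from -0.18 to 0.11.

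The spread between mice of 1 genotype also differed from gene to gene. The coefficient of variation of CPM was largest for *Nudcd2* in WT mice, at 21.8%, where counting alone gives 10.4%. For *Dync1h1* it was 1.23% in WT mice and 13.5% in Ube3am-/p+ mice, where counting gives 1.36% and 1.19%. For *Nudc* it was 6.35% and 1.37%, where counting gives 4.16% and 3.08%, so the 3 Ube3am-/p+ mice varied by less than counting alone gives. In these mice the same held for *Nudcd1* (2.63% against 6.0%), *Ndel1* (1.52% against 3.78%) and *Pafah1b1* (1.13% against 1.38%). The remaining members lay above counting in Ube3am-/p+ mice, though *Nudcd2* (9.81% against 9.67%) and *Nde1* (6.85% against 6.55%) only slightly. Each CV rests on 3 mice and is imprecise, and its distance from counting was not tested.

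**Figure D4:**
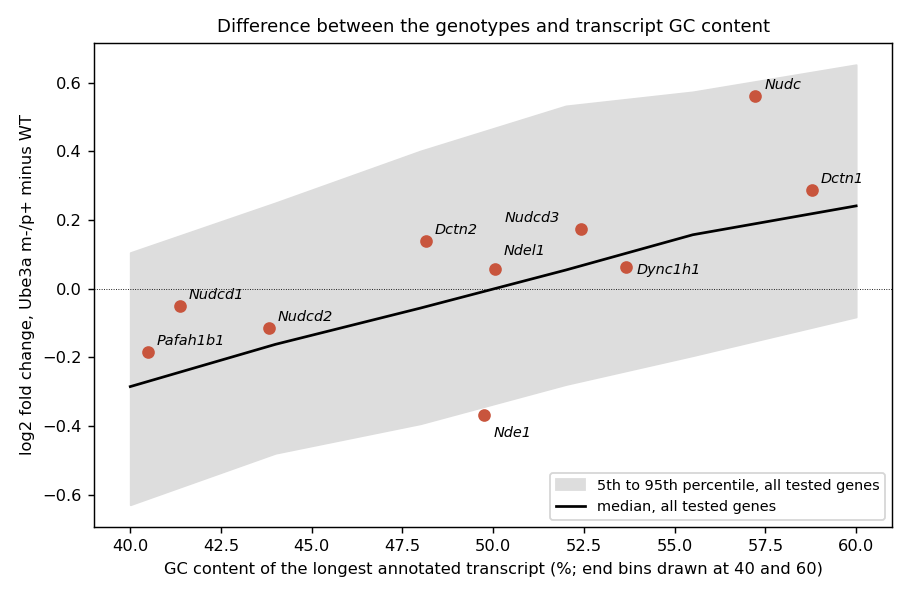
Log2 fold change of Ube3am-/p+ against WT mice by edgeR against GC content in percent, taken from each gene's longest annotated transcript. Red points are the 10 genes, the line is the median and the grey band the 5th to 95th percentile over bins of all tested genes with a known transcript. The median runs from -0.29 in the lowest bin to 0.24 in the highest. *Nudc* lies inside the band near its upper edge, and *Nde1* lies just below the lower edge as drawn.

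The genes with the pattern most like *Nudc* over the 6 mice, by Pearson's r of log2 CPM among 10412 other genes with a mean of at least 10 CPM, were *Nosip* (0.993), *Clcn6* (0.990), *Aplp1* (0.989), *Sall2* (0.988) and *Gprc5b* (0.988). The 6 points share the libraries and their GC relation, and 423 genes had an r above 0.9, so such a likeness is common here. Since *Nudc* was selected on its genotype difference, this ranking favours genes that differ between the genotypes. The likeness is a description, and nothing is read from calls among these genes. *Nosip*, a nitric oxide synthase interacting protein gene, had 32.51, 32.05 and 30.03 CPM in WT mice and 39.6, 39.3 and 39.0 CPM in Ube3am-/p+ mice. *Aplp1*, an amyloid precursor-like protein gene, was the only 1 of the 5 that was called by edgeR, with a log2 fold change of 0.34. Of the members, *Dctn1* was most like *Nudc* (r = 0.899) and *Pafah1b1* least (r = -0.945), with the same limit.

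Beyond these 10 members, 65 further genes of the same machinery were taken from 6 lists, of which 60 were tested. Of these, 2 were called by edgeR, 1 higher and 1 lower, with 5 called by DESeq2, and 11 higher and 8 lower at an unadjusted p below 0.05. The shares of all tested genes under the same rules were 2.01% by edgeR, 6.58% by DESeq2, and 12.2% higher and 12.4% lower at an unadjusted p. The median log2 fold change of the 60 was 0.02, beside 0.0025 over all tested genes. Both called genes encode adaptors that tie dynein to its cargo. *Hap1*, the huntingtin-associated protein that carries vesicles and receptors, had 128, 114 and 113 CPM in WT mice 1, 2 and 3 and 137, 191 and 158 CPM in Ube3am-/p+ mice 1, 2 and 3. It rose by 0.47 ± 0.11 on the log2 scale (SE, adjusted p = 0.0427 by edgeR), with all Ube3am-/p+ mice above all WT mice.

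*Bicd1*, a bicaudal D coiled-coil adaptor, had 39.5, 48.9 and 63.1 CPM in WT mice 1, 2 and 3 and 37.0, 28.6 and 27.0 CPM in Ube3am-/p+ mice 1, 2 and 3. It fell, at -0.69 ± 0.16 on the log2 scale (SE, adjusted p = 0.0427 by edgeR), and the mice numbered 1 were the closest across the genotypes. The GC content was 58.4% for *Hap1* and 38.6% for *Bicd1*. After the correction the log2 fold changes were 0.26 and -0.35 (adjusted p = 0.105 and 0.0949, edgeR). Neither was called when WT mouse 2 or 3 or Ube3am-/p+ mouse 2 or 3 was left out, with adjusted p between 0.136 and 0.272 (edgeR). Over all tested genes 0 to 2 were called in those fits. Of the 15 adaptors tested, 10 had a positive and 5 a negative log2 fold change, with a median of 0.10. Over all tested genes 7273 were positive and 7172 negative. After the correction some adaptors turned in each direction, so this count depends on that step.

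The other 5 lists had no called gene by edgeR, and their counts can be read beside the same shares of all tested genes, 24.6% at an unadjusted p below 0.05 and 6.58% by DESeq2. Among 11 cytoplasmic dynein subunits, 2 higher and 3 lower had an unadjusted p below 0.05, 2 were called by DESeq2 and the median log2 fold change was -0.02. The largest values were for *Dynlrb2*, a light chain of the roadblock type, at 0.95 on 65 counts (adjusted p = 0.197, edgeR), and *Dynlt3*, a light chain of the Tctex type, at -0.45 (adjusted p = 0.0756, edgeR). The *Dynlt1* copies of the list are near-identical, so their counts are uncertain. Among 10 further dynactin subunits 1 higher and 1 lower had an unadjusted p below 0.05 and 1 was called by DESeq2. *Capza2*, which caps the short actin-like filament, was at -0.33 (adjusted p = 0.0632, edgeR) and *Dctn6* at 0.20 (adjusted p = 0.253, edgeR). The median of the dynactin subunits was -0.02. After the correction for GC content and length, *Dynlrb2* was at 0.81, *Dynlt3* at -0.19 and *Dctn6* at 0.15. *Capza2* turned to 0.03, so its direction depends on that step.

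Among 10 partners of LIS1 and NDEL1, 2 higher and 1 lower had an unadjusted p below 0.05, and none was called by DESeq2. The largest were *Pafah1b3*, a catalytic subunit of the acetylhydrolase that LIS1 also belongs to, at 0.58 (adjusted p = 0.178, edgeR), and doublecortin, *Dcx*, at -0.48 (adjusted p = 0.0807, edgeR). Among 9 CS domain and HSP90 genes the median was -0.11, with 1 higher and 1 lower at an unadjusted p below 0.05 and none called by DESeq2. *Cyb5r4* and *Chordc1* were at -0.30 and -0.21 (adjusted p = 0.121 and 0.209, edgeR). Of the 5 dynein-2 genes, the motor of transport inside cilia, 1 was higher at an unadjusted p below 0.05 and none was called by DESeq2. *Wdr34* was at 0.35 (adjusted p = 0.127, edgeR) and *Dync2h1* at -0.08 (adjusted p = 0.735, edgeR). After the correction *Pafah1b3* was at 0.32, *Dcx* at -0.20, *Cyb5r4* at -0.11 and *Wdr34* at 0.09. *Chordc1* turned to 0.18 and *Dync2h1* to 0.12, so their direction depends on that step. The CS domain and HSP90 genes with a known transcript then ran from -0.12 to 0.27, on both sides of no difference.

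**Figure D5:**
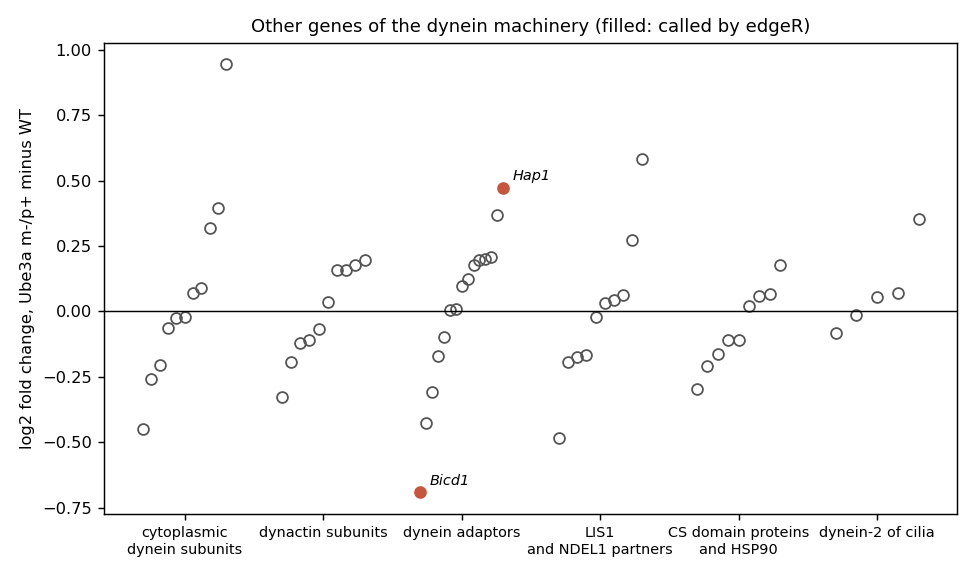
Log2 fold change of Ube3am-/p+ against WT mice by edgeR for the 60 tested genes of the 6 lists, ordered within each list. Filled red points, *Hap1* at 0.47 and *Bicd1* at -0.69, were called, and open points were not.

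Markers of other cell types were summed in each mouse beside these values. The summed level of 7 ependymal and motile cilia markers was 48.3 to 52.1 CPM in WT mice and 63.8 to 71.0 CPM in Ube3am-/p+ mice, with 1 of 7 called as higher. That of 8 meningeal markers was 99.8 to 158 and 107 to 189 CPM, with 1 of 8 called as higher, and that of 6 choroid plexus markers was 99.4 to 2170 and 106 to 2260 CPM, with none called by edgeR. Pyramidal and granule neuron markers summed to 784 to 810 CPM in WT mice and 612 to 729 CPM in Ube3am-/p+ mice, with none of 6 called by edgeR. The 4 general neuronal markers summed to 3630 to 3840 and 3290 to 3440 CPM, while their median log2 fold change was 0.07. Oligodendrocyte markers summed to 6180 to 6300 and 5210 to 5950 CPM, and microglial markers to 201 to 225 and 178 to 195 CPM. Both were without overlap, as were the ependymal, general neuronal and pyramidal and granule neuron sums. Astrocyte markers summed to 1200 to 1320 and 1170 to 1250 CPM and endothelial markers to 154 to 174 and 151 to 163 CPM, with overlap. The oligodendrocyte, microglial, astrocyte and endothelial lists had no called gene by edgeR. Over all tested genes, taken singly, 10.8% were higher and 14.2% lower without overlap, and 1.02% were called as higher. The part of these cells in the differences of *Nudc* and *Nde1* was not tested, and in whole tissue more cells of a type and more RNA per cell cannot be told apart.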

How the data were processed

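RNA from the hippocampus of 3 WT and 3 Ube3am-/p+ mice was sequenced, with 1 library per mouse. The authors deposited raw counts per gene symbol for each mouse, and the submitters' processing notes name STAR 2.7.4a, HTSeq and mm10. The annotation and the strand setting are not given in the sources used here. Counts were 7293272 to 11314409 per library on genes, and 39.0% to 41.8% of the reads listed.

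The deposited counts were tested in R 4.3.3 with edgeR 4.0.16 (filterByExpr, TMM, robust quasi-likelihood F test on genotype alone, two-sided). P-values were adjusted by Benjamini-Hochberg over 14445 genes. Calls needed a fold change of more than 1.2 and an adjusted p under 0.05, and DESeq2 1.42.0 was an alternative. Nothing says that the mice were of separate litters, so p-values measure the spread between these mice. CPM and the per-length RPKM were computed here on total gene counts, and fold changes come from the TMM-scaled fit. The correction fitted natural splines with 5 degrees of freedom on the GC content and the length of each gene's longest GENCODE M21 transcript. The steps were tested on simulated counts. These had no GC relation that differed between libraries, unlike the data, so the simulation cannot show how the steps behave under such a relation. Other alternatives were scaling factors, filters, thresholds, the replicate number as a block and leaving out each mouse.

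The members and lists were chosen with earlier results of these data known. The genes named were the members, *Ube3a*, the called genes and the 2 largest differences of each list, and the 5 genes most like *Nudc*. Protein sequences were not used here.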

Additional observations from a re-analysis of the deposited data

How the results depend on the processing

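The 10 members' log2 fold changes kept their direction under all scalings, filters and DESeq2, and the correction for GC content and length, alone or with the block, moved those of *Nudc*, *Nudcd1*, *Pafah1b1* and *Dctn1* by more than 1 SD between mice, and turned the direction of *Nudcd1*, *Pafah1b1* and *Dync1h1*. Without WT mouse 2, *Nudcd1* turned to 0.0036 and *Nudcd2* to 0.03. Of the members 1 was called, 2 with DESeq2, with no filter, without WT mouse 1 or without Ube3am-/p+ mouse 1, and 3 at an unadjusted p below 0.05 with the same fold change, which 19.6% of all tested genes passed. With the GC and length correction it was 0 (2 at an unadjusted p below 0.05, edgeR, beside 2017 of 14201 tested genes). It ranged from 0 to 2 with 1 mouse left out. Of the other pathway genes 2 were called, 5 with DESeq2 and 6 with no filter. At an unadjusted p below 0.05 with the same fold change there were 13, beside the same 19.6%. Their count was 0 with the correction (8 at an unadjusted p, edgeR, beside the same 2017 of 14201) and 0 to 14 with 1 mouse left out. *Ube3a* was at -0.20 with the correction (adjusted p = 0.241, edgeR) and between -0.73 and -0.48 with 1 mouse left out. Over all tested genes 290 were called, 951 with DESeq2, 1176 with no filter, 92 with the correction, 0 with the block (2422 at an unadjusted p below 0.05, edgeR), 13 with both and 0 to 2582 with 1 mouse left out. The cause of these moves was not tested.

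With the replicate number as a block, 0 members and 0 other pathway genes were called by edgeR (3 and 9 at an unadjusted p below 0.05), and *Ube3a* was at -0.57 (adjusted p = 0.216, edgeR). With the block and the correction together both counts were 0 (2 and 8 at an unadjusted p, edgeR) and *Ube3a* was at -0.19 (adjusted p = 0.372, edgeR). At an unadjusted p below 0.05 (edgeR) there were 2422 of 14445 tested genes with the block and 1612 of 14201 with both. Deviations from the genotype means correlated at -0.33, -0.179 and -0.326 between mice numbered 1, 2 and 3 across genes. These deviations carry the GC relation of each library, so they cannot show whether mice of 1 number shared a litter or batch. The labels name no pairing. The order of levels kept 8 or 9 of its 9 neighbouring pairs with the median transcript length, TMM scaling or 1 mouse left out. *Nudcd2* had the fewest counts of the members (601 in all), and counting alone gives a CV of 10.4% in WT mice, where 21.8% was measured.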
